A study of Mus musculus with 12 samples.

Results

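The lysosomal genes described here are 45 genes of known lysosomal function, measured in mouse brown fat of wild-type and fat-specific Cpt2 knockout animals. The set is a list of names by function, with no measured value in its rule, but it was drawn up with earlier results of these data known. It holds 10 proteases, 12 glycosidases and sulfatases, 4 lipid hydrolases, 3 luminal cofactors, 7 membrane proteins, 6 proton pump subunits and 3 transcription factors. A gene is represented by the array row that belongs to it alone, and where several rows did so, by the row with the highest mean over all 12 arrays. On that rule 20259 genes had a row, all 45 lysosomal genes among them. A gene entered the tests if its signal passed the 25th percentile of named genes on 3 or more arrays. This kept 15896 genes and all 45.

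The study compared the interscapular brown fat of 12 C57BL/6 mice, all female and 12 weeks old, on 1 Affymetrix array per mouse with 3 mice per group. Wild-type controls were Cpt2f/f, that is, they carried floxed Cpt2 alleles and no Cre. Knockouts were adiponectin-Cre; Cpt2f/f, so that Cre was driven by the adiponectin promoter in adipocytes and other cells of the tissue kept the gene. All 12 mice spent 2 weeks at 30 °C. The 4 groups were wild-type saline, wild-type CL316243, knockout saline and knockout CL316243. CL316243, which activates the β3-adrenergic receptor, was injected into the peritoneum at 10 mg/kg, and tissue was taken 3 h after either injection. The labels give the 3 mice of a group as biological replicates, name no batch and do not pair mice between groups.

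Lysosomes are acidic organelles that digest material delivered by endocytosis, phagocytosis and autophagy. Their lumen holds hydrolases for proteins, glycans and lipids, their membrane carries transporters and protective glycoproteins, and a rotary proton pump, the V-type ATPase, keeps them acidic. In adipocytes a lysosomal acid lipase can release fatty acids from lipid droplets taken up by autophagy, next to the neutral lipases of the cytosol. Macrophages are rich in lysosomes as well. The transcription factors TFEB, TFE3 and MITF bind E-box motifs near the start of many lysosomal genes.

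Signals are log2 values. Across the 15896 tested genes, the Pearson correlation of arrays was 0.937 to 0.984 inside a group and 0.878 to 0.960 from group to group. Cpt2 was lower in each knockout array (7.87 to 8.20) than in each wild-type array (8.52 to 8.99). Of the brown adipocyte markers, Adipoq was at a mean of 11.44 to 12.34 in the 4 groups. Ucp1, the uncoupling protein of brown fat, was at 8.39 in knockout saline array 1 against 11.47 and 12.29 in the other knockout saline arrays. Skeletal muscle markers varied between arrays of a group, with a mean centred signal of -2.21 to 1.95 within wild-type saline. Fewer cells of a type and less RNA per cell cannot be told apart in whole tissue.

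Many lysosomal genes were higher in knockout than in wild-type brown fat, and the agonist raised some and lowered others in wild types. After saline, 18 of the 45 were called at an adjusted p under 0.05 (limma, Benjamini-Hochberg over all 15896 genes), against 11.6% of all tested genes. Of these 17 were higher in the knockouts and 1 was lower, against 5.44% and 6.19%. After CL316243, 24 were called, against 29.5%, with 21 higher and 3 lower, against 14.7% and 14.8%. In wild-type mice the agonist moved 20 of the 45, against 29.8% of all tested genes: it raised 8 and lowered 12, against 11% and 18.8%. The rises took in 4 of 6 proton pump genes and the falls 6 of 12 glycosidases and sulfatases. In knockouts it moved 5, against 17.9%: it raised 1 and lowered 4, against 7.75% and 10.2%. Counted instead by arrays that did not overlap between the groups, 10 of the 45 were higher and 16 lower with the agonist in wild types, against 14.3% and 26.7% of all tested genes, and 6 and 10 in knockouts, against 15% and 25.2%. By that count 30 were higher and 1 lower in knockouts after saline, against 14.1% and 22.7%, and 24 and 5 after CL316243, against 21.7% and 23.2%. There were 13 of the 45 called in none of the comparisons, against 7676 of all 15896 tested genes. These 13 were Ctsb, Tpp1, Gla, Gaa, Manba, Neu1, Ppt1, Lamp1, Npc1, Mcoln1, Atp6v1c1, Tfeb and Tfe3.

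**Figure D1:**
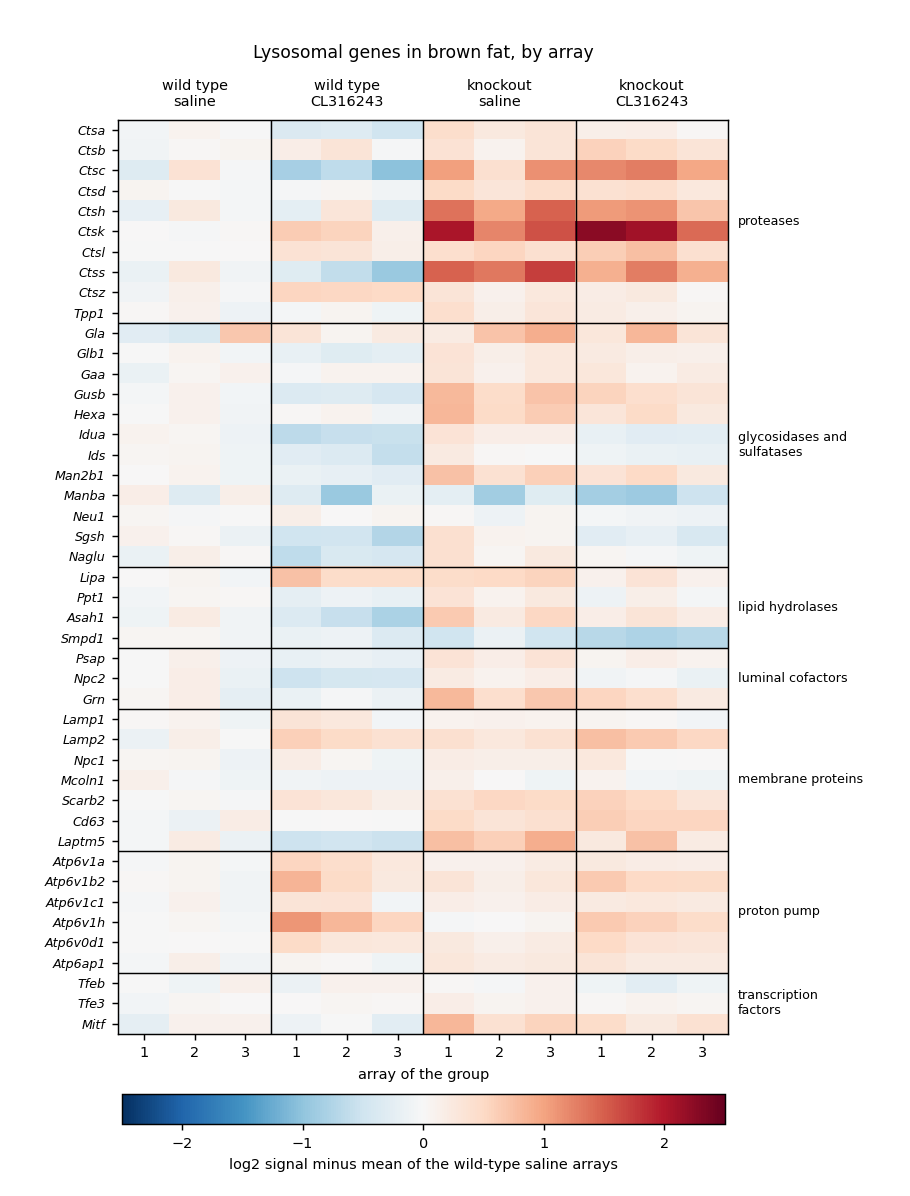
Log2 signal of the 45 lysosomal genes on each of the 12 arrays, shown as the difference from the mean of the 3 wild-type saline arrays, with genes in rows by role and arrays in columns by group. Red is higher and blue is lower. Ctss, Ctsh and Ctsk are red in all 6 knockout arrays, and 4 of the proton pump genes are red in the wild-type CL316243 arrays.

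Several subunits of the proton pump rose with the agonist in wild-type mice. Atp6v1h, a regulatory subunit of the pump's cytosolic sector, was at 7.22, 7.27 and 7.17 after saline and at 8.32, 8.06 and 7.75 after CL316243. All 3 agonist arrays lay above all 3 saline arrays, although they spread more widely among themselves. The rise was 0.82 ± 0.12 log2 units (standard error, n = 3 per group, adjusted p = 0.000708), or 1.77-fold. Atp6v1a, the catalytic subunit, went from 7.80, 7.89 and 7.77 to 8.35, 8.27 and 8.09, again without overlap, a rise of 0.41 ± 0.08 (adjusted p = 0.00319). Atp6v1b2, the other subunit of the catalytic ring, rose by 0.52 ± 0.13 (adjusted p = 0.0132), and Atp6v0d1, which couples the membrane sector to the stalk, rose by 0.34 ± 0.08 (adjusted p = 0.00975). Atp6v1c1, another cytosolic subunit, had a difference of 0.20 ± 0.11 (adjusted p = 0.184), and the accessory protein Atp6ap1 was not called (adjusted p = 0.99). The rise was therefore seen in 4 of 6 pump genes, against the 11% of all tested genes that rose.

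The other 4 rises were those of a lipase, a protease and a pair of membrane proteins. Lipa, lysosomal acid lipase, which cleaves triglycerides and cholesteryl esters, was at 9.08, 9.15 and 9.0 after saline and at 9.80, 9.54 and 9.52 after CL316243, a rise of 0.55 ± 0.10 (adjusted p = 0.00186). Ctsz, a carboxypeptidase, was at 10.24, 10.46 and 10.30 and then at 10.87, 10.86 and 10.82, a rise of 0.52 ± 0.09 (adjusted p = 0.00174). Neither gene's groups overlapped. Lamp2, a glycoprotein that lines the lysosomal membrane and takes part in autophagy, went from 8.99, 9.27 and 9.13 to 9.72, 9.61 and 9.51, a rise of 0.49 ± 0.09 (adjusted p = 0.00313). Its close relative Lamp1 had a difference of 0.17 ± 0.10 (adjusted p = 0.264), with overlapping groups. Scarb2, the membrane receptor that carries glucocerebrosidase to lysosomes, rose by 0.26 ± 0.09 (adjusted p = 0.0493), a call that held with 3 of the 12 arrays left out in turn.

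The 12 falls in wild-type mice took in 6 of the 12 glycosidases and sulfatases, against 18.8% of all tested genes, and 0 of that role rose, against 11%. This holds for the rows used, as a second row of Gla had a difference of 1.21. Idua, an iduronidase that trims heparan and dermatan sulfate, was at 8.38, 8.35 and 8.16 after saline and at 7.64, 7.73 and 7.74 after CL316243, so that the groups lay well apart. It fell by 0.60 on the log2 scale (standard error 0.08, adjusted p = 0.000519). Further enzymes of glycosaminoglycan breakdown fell with it: the sulfamidase Sgsh (-0.57 ± 0.11), the glucosaminidase Naglu (-0.48 ± 0.12), the iduronate sulfatase Ids (-0.40 ± 0.10) and the glucuronidase Gusb (-0.36 ± 0.10), with adjusted p-values of 0.00349 to 0.0196. The β-galactosidase Glb1 fell by 0.25 (standard error 0.08, adjusted p = 0.0318). Npc2, which binds cholesterol in the lumen and hands it to Npc1, fell by 0.46 (standard error 0.09, adjusted p = 0.00354), whereas Npc1 itself differed by 0.04 ± 0.10 (adjusted p = 0.794).

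Among proteases, Ctsc, which activates the serine proteases of immune cells, was at 8.35, 9.04 and 8.64 after saline and at 7.85, 8.04 and 7.64 after CL316243, without overlap. It fell by 0.83 (standard error 0.21, adjusted p = 0.0128). Ctss, the cathepsin of antigen-presenting cells, was at 8.70, 9.11 and 8.76 and then at 8.56, 8.24 and 7.93, a fall of 0.61 (standard error 0.18, adjusted p = 0.0245). The serine carboxypeptidase Ctsa fell by 0.39, the acid ceramidase Asah1 by 0.57, and Laptm5, a lysosomal membrane protein of blood cells, by 0.51. Of 16 macrophage markers tested, 1 rose and 4 fell in this comparison, against 11% and 18.8% of all tested genes. Their mean centred signal was -0.357 to -0.0037 in the saline arrays and -0.504 to -0.366 in the agonist arrays. The part of these markers in the falls of Ctsc, Ctss and Laptm5 was not tested.

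The balance of rises and falls among the 45 genes in wild-type mice changed with median-centring of the arrays, and little with quantile normalization. The median difference was -0.07 over all tested genes and -0.02 over the 45. When arrays were centred on their medians, which shifts the median of all genes by 0.117, 9 lysosomal genes rose and 5 fell. Upward calls were then 64.3%, against 40% as deposited, and the median over the 45 became 0.09. Over all tested genes the upward share of calls moved in the same way, to 62.2% from 36.8% as deposited. The 5 falls under that scaling were those of Ctsc, Idua, Sgsh, Naglu and Npc2, and all 8 rises described above were called under it. Quantile normalization gave 8 rises and 11 falls among the 45, or 42.1% upward, and a median of -0.02. All 19 had been called as deposited. Over all tested genes 28.1% were called with it, and 49.9% of those calls were upward.

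**Figure D2:**
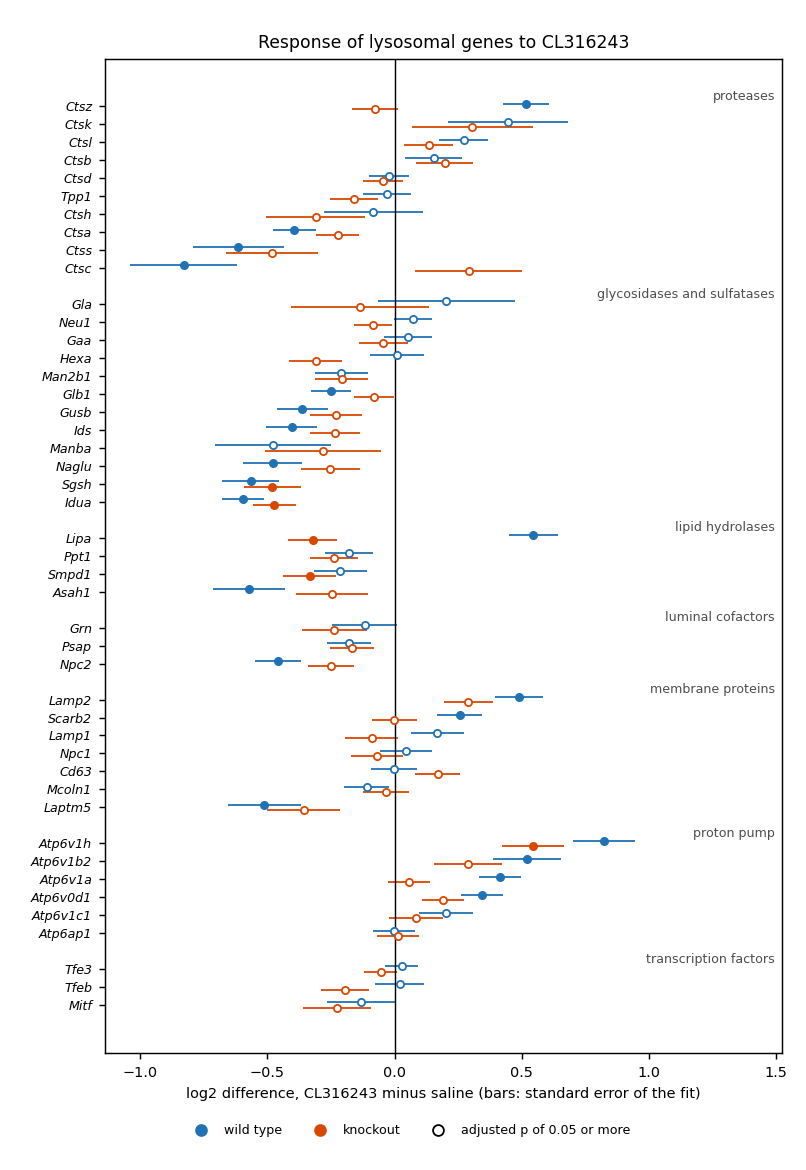
Log2 difference between CL316243 and saline arrays for each of the 45 genes, in wild types (blue) and knockouts (orange), grouped by role; points are fitted differences, bars are standard errors (n = 3 per group), and open points had an adjusted p of 0.05 or more. Lipa lies to the right in wild types (0.55) and to the left in knockouts (-0.32), and the enzymes Sgsh and Idua lie to the left in both.

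The E-box letters that TFEB, TFE3 and MITF bind were looked for in the promoters. RefSeq promoter windows (GRCm38.p6, 250 bases before to 50 bases after each start, a build other than the mm9 named for the array) were at hand for 38 of the 45 genes, not for Ctsb, Ctsh, Asah1, Npc1, Atp6v1b2, Atp6v1c1 or Atp6v1h. The E-box CACGTG, which reads alike on both strands, was present for 12 of the 38 genes (31.6%), against 10.9% of 12294 tested genes with a window. The longer TCACGTGA, which contains it, was present for 6 (15.8%, against 1.86%), and with a further G before and C after it for 0 of 38, against 0.634%. TGACGTCA, the full cAMP response element and also its own reverse complement, was present for Gusb and Mitf (2 of 38, 5.26%, against 2.98%). Printed here, on the gene's strand, are a pair of pump genes that rose with the agonist in wild types, a pair of enzyme genes that fell, and Lipa, whose window holds no CACGTG; capitals mark TCACGTGA or, for Sgsh, CACGTG.
Atp6v1a: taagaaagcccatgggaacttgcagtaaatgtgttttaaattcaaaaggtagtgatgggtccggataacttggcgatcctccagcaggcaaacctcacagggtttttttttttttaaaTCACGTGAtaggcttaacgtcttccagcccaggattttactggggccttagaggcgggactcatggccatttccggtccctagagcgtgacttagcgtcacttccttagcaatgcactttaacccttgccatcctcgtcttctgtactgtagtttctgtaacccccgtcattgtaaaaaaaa
Atp6v0d1: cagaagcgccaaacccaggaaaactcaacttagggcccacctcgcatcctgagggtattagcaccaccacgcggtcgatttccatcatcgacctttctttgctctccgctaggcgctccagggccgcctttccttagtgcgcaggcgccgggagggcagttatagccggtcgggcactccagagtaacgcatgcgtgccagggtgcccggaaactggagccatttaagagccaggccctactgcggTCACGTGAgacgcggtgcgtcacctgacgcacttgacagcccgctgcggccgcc
Ctsa: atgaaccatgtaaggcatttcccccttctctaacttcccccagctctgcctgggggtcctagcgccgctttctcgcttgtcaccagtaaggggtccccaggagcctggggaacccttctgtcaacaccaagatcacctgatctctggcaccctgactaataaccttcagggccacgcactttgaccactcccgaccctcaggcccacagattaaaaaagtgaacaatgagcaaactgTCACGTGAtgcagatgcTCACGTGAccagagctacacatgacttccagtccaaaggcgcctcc
Sgsh: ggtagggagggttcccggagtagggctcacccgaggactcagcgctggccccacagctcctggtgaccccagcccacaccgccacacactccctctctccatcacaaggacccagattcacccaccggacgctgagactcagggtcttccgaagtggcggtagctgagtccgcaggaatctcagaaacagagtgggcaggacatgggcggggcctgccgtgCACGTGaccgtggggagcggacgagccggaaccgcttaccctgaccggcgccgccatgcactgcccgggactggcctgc
Lipa: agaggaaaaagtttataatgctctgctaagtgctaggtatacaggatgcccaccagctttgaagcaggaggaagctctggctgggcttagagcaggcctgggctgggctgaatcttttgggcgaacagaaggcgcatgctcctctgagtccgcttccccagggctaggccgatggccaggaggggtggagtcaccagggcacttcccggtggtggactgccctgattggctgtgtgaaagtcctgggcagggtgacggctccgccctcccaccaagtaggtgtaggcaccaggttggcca
These windows lie at chr16:44139210-44139509 (minus strand), chr8:105566015-105566314 (minus strand), chr2:164833523-164833822 (plus strand), chr11:119355461-119355760 (minus strand) and chr19:34527425-34527724 (minus strand). The CACGTG letters begin 131 bases before the annotated start in Atp6v1a, 3 bases before it in Atp6v0d1 and 29 bases before it in Sgsh, and 12 bases before it in Ctsa, whose window holds them again after the start. Ctsa has a second, upstream window without these letters. Of the 12 genes with CACGTG, 2 rose and 4 fell with the agonist in wild types, and of the 26 with a window that lacks it, 4 rose and 7 fell, against 11% and 18.8% of all tested genes. In knockouts after saline, 3 of the 12 and 13 of the 26 were higher than in wild types, against 5.44%. The difference between genes with and without the letters was not tested. These are descriptions of letters in a short window and do not show binding.

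In knockouts the agonist moved 5 of the 45 genes. The difference was positive for 12 and negative for 33, with a median of -0.14 against -0.06 over all tested genes. When arrays were median-centred, 18 were positive. All 12 glycosidases and sulfatases had a negative difference, against 8 of the 12 in wild types, with medians of -0.23 and -0.31. The interaction was called for 0 of these 12. Atp6v1h, the pump's regulatory subunit, was at 7.19, 7.24 and 7.28 after saline and at 7.88, 7.79 and 7.67 after CL316243, a rise of 0.54 ± 0.12 (adjusted p = 0.0117) with no overlap. Idua was at 8.65, 8.47 and 8.46 and then at 8.10, 8.02 and 8.04, a fall of 0.47 (standard error 0.08, adjusted p = 0.00395), and Sgsh fell by 0.48 (standard error 0.11, adjusted p = 0.0146). These 3 genes moved the way they had in wild types. Smpd1, acid sphingomyelinase, fell by 0.33 (standard error 0.10, adjusted p = 0.0483), a call that held with 1 of the 12 arrays left out in turn. The count of 5 was 2 without knockout saline array 1 or knockout CL316243 array 3. It was 3 without wild-type saline array 1, wild-type CL316243 array 2, knockout saline array 3 or knockout CL316243 array 1. Of all tested genes 10.7% and 10.9% were called in the former fits and 10.1% to 16% in the latter, against 17.9%. With arrays centred on their medians, 1 gene rose (Atp6v1h) and 1 fell (Idua), so that 50% of calls were upward against 20% as deposited. Over all tested genes the upward share of calls was 63.8%, against 43.2% as deposited. Quantile normalization instead gave 7 calls among the 45, with 1 rise and 6 falls. It called 17% of all tested genes, and 51.7% of those calls were upward.

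Lipa responded in opposite directions in the 2 genotypes. In knockouts it was at 9.53, 9.58 and 9.64 after saline, above all wild-type saline arrays and within the span of the wild-type agonist arrays, and at 9.18, 9.41 and 9.19 after CL316243. It fell by 0.32 there (standard error 0.10, adjusted p = 0.0403), a call that held with 5 of the 12 arrays left out in turn. The response in knockouts minus that in wild types, the interaction, was -0.87 ± 0.14 (adjusted p = 0.01125). This was the lowest of the 45 on the rows used, while a second row of Gla gave -1.36. The Lipa interaction was called with each of the 12 arrays left out, and over all alternatives it was -0.94 to -0.78. Ctsz, which rose in wild types, was at 10.66, 10.44 and 10.58 in knockout saline arrays and at 10.52, 10.58 and 10.36 in knockout agonist arrays, which overlap. Its interaction was -0.59 ± 0.13 (adjusted p = 0.0416), called with 3 of the 12 arrays left out and with an adjusted p of up to 0.107 among the alternatives. These were the only interactions called among the 45, against 2.04% of all tested genes, with 0 higher and 2 lower against 0.774% and 1.26%. Ctsc had the highest interaction, 1.12 ± 0.30, which missed the threshold (adjusted p = 0.0835). The pump subunit Atp6v1a rose in wild types and differed by 0.06 ± 0.08 in knockouts (adjusted p = 0.696), but its interaction of -0.36 ± 0.11 was not called (adjusted p = 0.145).

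**Figure D3:**
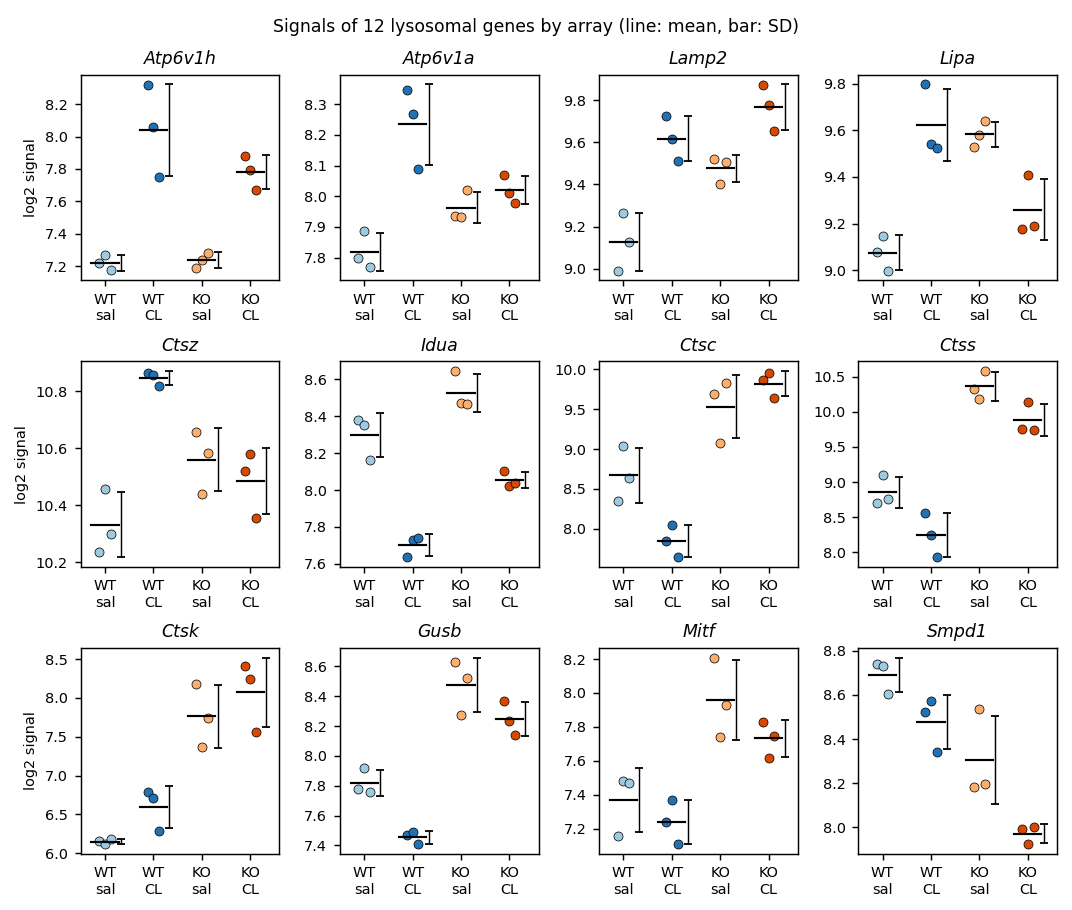
Log2 signal on each array for 12 lysosomal genes in the 4 groups (WT wild type, KO knockout, sal saline, CL CL316243; each point an array, line the group mean, bar the SD, n = 3; each gene has its own vertical scale, which does not start at 0). Atp6v1h is high in both agonist groups, Lipa is high in the wild-type agonist and knockout saline groups, and Ctss, Ctsk and Gusb are high in both knockout groups.

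Without the agonist, knockout brown fat already differed from wild type in these genes. The difference was positive for 42 of the 45, with a median of 0.25 against -0.05 over all tested genes. The 17 genes called higher were 7 proteases, 3 glycosidases, the lipase Lipa, the cofactor Grn, 4 membrane proteins and Mitf. No proton pump subunit of the 6 was called, at differences of 0.02 to 0.25, all 6 of them positive. For 4 of the 6 the knockout arrays lay above all wild-type arrays, against 14.1% of all tested genes. The count of 18 calls was 10 without knockout saline array 1, 10 without knockout saline array 3 and 11 without wild-type saline array 1. In those fits 4%, 3.68% and 4.04% of all tested genes were called, against 11.6% with all arrays. The calls of Ctsh, Ctsk, Ctss, Gusb, Hexa, Man2b1 and Lipa held under all 21 alternatives tried.

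Cathepsins showed the widest differences. Ctsk, a collagen-degrading cathepsin best known from osteoclasts, was at 6.15, 6.11 and 6.18 on wild-type saline arrays and at 8.18, 7.37 and 7.74 in knockout saline arrays. The knockout arrays were far above the wild-type arrays and spread over a wider range. The difference was 1.62 ± 0.24 (adjusted p = 0.0035), or 3.07-fold. Ctss was at 8.70, 9.11 and 8.76 in wild type and at 10.32, 10.18 and 10.59 in knockouts, a difference of 1.51 ± 0.18 (adjusted p = 0.0016) or 2.84-fold. Ctsh, an aminopeptidase among the cathepsins, was 2.40-fold higher (1.26 ± 0.19, adjusted p = 0.00429). Ctsc was higher by 0.86 ± 0.21 (adjusted p = 0.0266), with the lowest knockout array at 9.08 just above the highest wild-type array at 9.04, and its call was lost without wild-type saline array 1 or 3 or knockout saline array 1 or 3 (adjusted p of up to 0.109). Smaller differences were called for Ctsl (0.46), the aspartic protease Ctsd (0.40) and Ctsa (0.34). Ctsb (0.26 ± 0.11), Ctsz (0.23 ± 0.09) and Tpp1 (0.29 ± 0.09) were not called, at adjusted p-values of 0.0724 to 0.148.

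Among enzymes of glycans, Gusb was at 7.77, 7.92 and 7.76 on the wild-type saline arrays and at 8.63, 8.28 and 8.52 in knockout saline arrays, without overlap. The difference was 0.66 ± 0.10 (adjusted p = 0.00407). Hexa, a hexosaminidase subunit that acts on gangliosides, was higher by 0.65 ± 0.11 (adjusted p = 0.00533), and Man2b1, an α-mannosidase, by 0.57 ± 0.10 (adjusted p = 0.00864). Idua and Sgsh, which the agonist lowered in both genotypes, were not called here (0.23 ± 0.08 and 0.18 ± 0.11). Lipa was higher by 0.51 ± 0.10 (adjusted p = 0.00999) and Grn, progranulin, by 0.63 ± 0.13 (adjusted p = 0.0121). Smpd1 was the only gene of the 45 called lower, at 8.74, 8.73 and 8.60 in wild type against 8.18, 8.54 and 8.20 in knockouts, a fall of 0.39 (standard error 0.10, adjusted p = 0.0382) whose call held with 4 of the 12 arrays left out.

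Of the membrane proteins, Laptm5 was higher in the knockouts after saline by 0.75 ± 0.14 (adjusted p = 0.01), Scarb2 by 0.46 ± 0.09 (adjusted p = 0.0104), the tetraspanin Cd63 by 0.40 ± 0.09 (adjusted p = 0.0195) and Lamp2 by 0.35 ± 0.09 (adjusted p = 0.0389). Lamp1, the cholesterol exporter Npc1 and the calcium channel Mcoln1 were not called, at differences of 0.01 to 0.16. All 7 membrane proteins had a positive difference, with a median of 0.35, and 4 were called higher, against 5.44% of all tested genes.

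**Figure D4:**
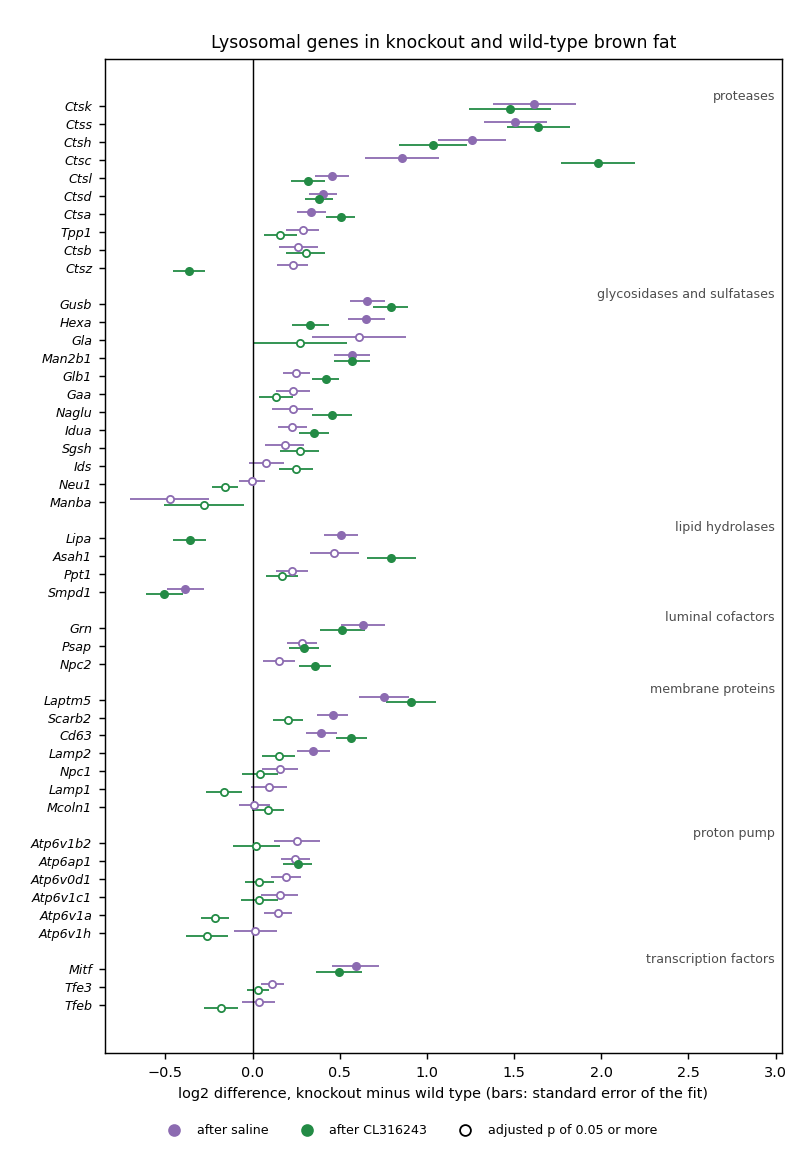
Log2 difference between knockout and wild-type arrays for each of the 45 genes, after saline (purple) and after CL316243 (green), grouped by role; points are fitted differences, bars are standard errors (n = 3 per group), and open points had an adjusted p of 0.05 or more. Ctsk, Ctss, Ctsh and Ctsc lie farthest to the right, and Smpd1 lies to the left after both injections. The proton pump genes lie at 0.02 to 0.25 after saline and at -0.26 to 0.26 after CL316243.

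After CL316243, on arrays separate from those of the saline comparison, 14 of the 45 genes were higher in knockouts as they had been after saline, compared with 654 of all 15896 tested genes. Smpd1 was called lower after both, at 8.52, 8.57 and 8.34 in wild-type agonist arrays and at 7.99, 7.92 and 8.0 in knockout agonist arrays, a fall of 0.51 (standard error 0.10, adjusted p = 0.00487). Ctsc was at 7.85, 8.04 and 7.64 against 9.87, 9.95 and 9.64, which is the widest gap among the 45. The difference was 1.98 ± 0.21 (adjusted p = 0.0001615), or 3.94-fold. Ctss differed by 1.64 ± 0.18 (3.11-fold), Ctsk by 1.48 ± 0.24 (2.78-fold) and Ctsh by 1.03 ± 0.19 (2.05-fold), all called under each of the 21 alternatives. Gusb differed by 0.79 ± 0.10 (adjusted p = 0.000398) and Laptm5 by 0.91 ± 0.14 (adjusted p = 0.0012).

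A further 7 genes were called higher in knockouts after CL316243 and had not been after saline: Glb1, Idua, Naglu, Asah1, Psap, Npc2 and Atp6ap1. Asah1, the ceramidase that acts downstream of Smpd1, was at 7.48, 7.25 and 7.04 in wild type and at 7.99, 8.15 and 8.01 in knockouts, a difference of 0.79 ± 0.14 (adjusted p = 0.00223). This comparison and that of the agonist in wild types share the wild-type CL316243 arrays, in which 6 of these 7 genes were lower than after saline. Their differences in wild types with the agonist were -0.25 for Glb1, -0.60 for Idua, -0.48 for Naglu, -0.57 for Asah1, -0.18 for Psap (not called) and -0.46 for Npc2. None of the 7 was called for the interaction, at adjusted p-values of 0.48 to 0.979. Ctsz and Lipa were lower in the knockouts after CL316243, each by 0.36 (standard errors 0.09 and 0.10, adjusted p = 0.0124 and 0.017). Apart from Atp6ap1 (0.26 ± 0.08, adjusted p = 0.0375), the pump subunits were not called, at differences of -0.26 to 0.04.

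Among the 3 transcription factors, only Mitf was called. On wild-type arrays it was at 7.15, 7.48 and 7.47 after saline and at 7.24, 7.37 and 7.11 after CL316243. On knockout arrays it was at 8.21, 7.74 and 7.93 after saline and at 7.83, 7.62 and 7.75 after CL316243. The knockout arrays lay above the wild-type arrays after both injections, by 0.59 ± 0.13 after saline (adjusted p = 0.0189) and 0.49 ± 0.13 after CL316243 (adjusted p = 0.0175). Tfeb lay between 6.86 and 7.24 and Tfe3 between 7.53 and 7.76 on the 12 arrays, and neither was called in any of the 5 comparisons, where their adjusted p-values ran from 0.173 to 0.909. Signals of RNA do not show where in the cell these factors lie, by which TFEB and TFE3 are mainly controlled.

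Markers of some other cell types moved with the knockout. Of 16 macrophage markers tested of 17 listed, 10 were called higher after saline and 12 after CL316243. In both, 0 were called lower, and the median differences were 0.59 and 0.91. A negative difference that was not called was seen for 1 marker after saline (-0.41) and 1 after CL316243 (-0.39). By arrays without overlap, 9 were higher and 1 lower after saline, against 14.1% and 22.7% of all tested genes. After CL316243 these counts were 12 and 0, against 21.7% and 23.2%. Of all tested genes 5.44% were higher and 6.19% lower after saline, and 14.7% and 14.8% after CL316243. These shares also stand beside the marker counts below. Adgre1, a surface antigen of mouse macrophages, was at 7.73, 8.39 and 7.47 on wild-type saline arrays and at 9.21, 8.57 and 9.30 on knockout saline arrays. The mean centred signal of the 16 markers was -0.357 to -0.0037 after saline and -0.504 to -0.366 after CL316243 in wild types, and 0.0705 to 0.439 and 0.251 to 0.479 in knockouts. The same measure over the 10 proteases was -0.422 to -0.222, -0.56 to -0.279, 0.195 to 0.495 and 0.17 to 0.461 in that order, and over the 6 pump subunits -0.292 to -0.152, -0.0388 to 0.328, -0.108 to -0.033 and 0.0772 to 0.21. In knockout saline array 2 both the macrophage markers and the proteases were at their lowest of that group. So were the fibroblast markers (0.152, against 0.875 and 0.636), the lymphocyte markers and each of the other lysosomal roles, the pump among them. Brown adipocyte markers (-0.0268) and skeletal muscle markers were at their highest of that group in the same array. All 6 fibroblast markers were higher in the knockouts after both injections. Of 10 brown adipocyte markers, 1 was higher and 3 were lower in the knockouts after saline, and 1 was higher and 6 were lower after CL316243. Of 9 lymphocyte markers tested, 0 were called after saline by limma (2 were higher at an unadjusted p under 0.05) and 1 was higher after CL316243. Of 5 endothelial markers, 0 were called after saline by limma (1 was lower at an unadjusted p under 0.05), and 3 were lower after CL316243. The part of these markers in the lysosomal differences was not tested.

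**Figure D5:**
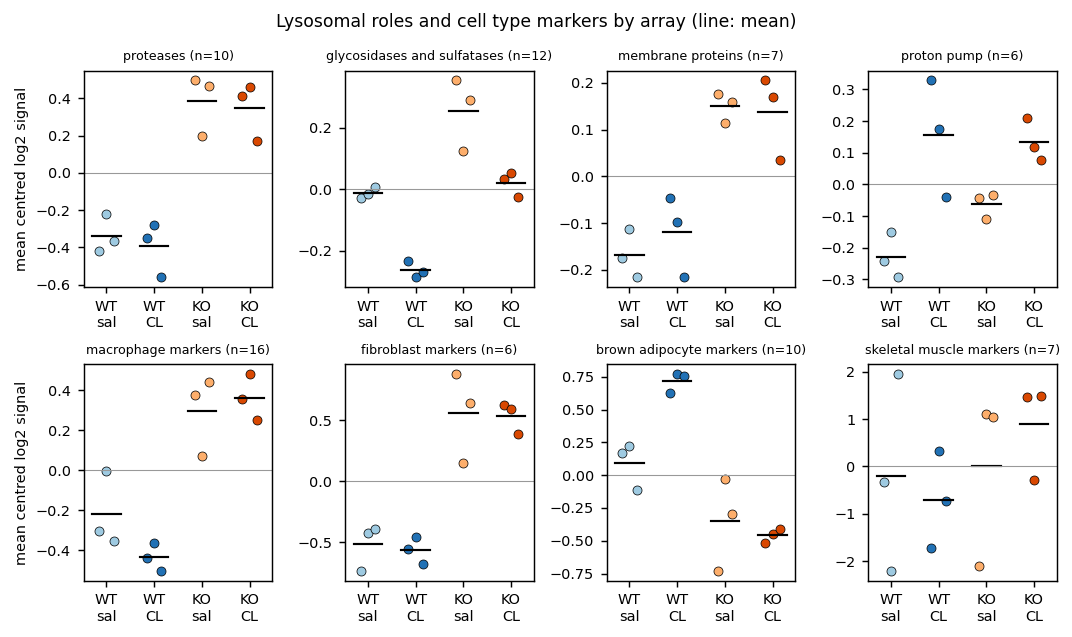
Mean centred log2 signal (each gene's signal minus its mean over the 12 arrays, averaged over the genes of a list) of 4 lysosomal roles and 4 marker lists on each array, by group (WT wild type, KO knockout, sal saline, CL CL316243; points are arrays, lines are group means, n = 3, and each panel has its own vertical scale). Proteases, macrophage markers and fibroblast markers are above 0 in all 6 knockout arrays and below 0 in all 6 wild-type arrays, while the proton pump list is above 0 in 2 of 3 wild-type agonist arrays and in all 3 knockout agonist arrays.

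Lysosomal genes outside the 45 were counted in lists from general knowledge. Of 18 other hydrolases and cofactors tested, 1 rose and 7 fell with the agonist in wild types, against 11% and 18.8% of all tested genes. In knockouts after saline 6 were higher and 0 lower, against 5.44% and 6.19%. The endopeptidase Lgmn was at 9.05, 9.01 and 8.98 on the wild-type saline arrays and at 9.87, 9.69 and 10.13 in knockout saline arrays, a difference of 0.88 ± 0.11 (adjusted p = 0.0019), and the sulfatase Galns was higher by 0.71 ± 0.08. The 1 riser with the agonist was Scpep1, a serine carboxypeptidase (0.79 ± 0.14), and among the falls was the acid phosphatase Acp2 (-0.51 ± 0.08). Of 20 other membrane and trafficking proteins, 0 rose and 6 fell with the agonist in wild types, against those same shares of 11% and 18.8%, led by the sialic acid exporter Slc17a5 (-0.88 ± 0.14), and 3 were higher in knockouts after saline, against 5.44%, led by Cd68, a lysosomal glycoprotein of macrophages, at 1.58 ± 0.12.

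Of 12 other proton pump subunits, 4 rose and 3 fell with the agonist in wild types, against 11% and 18.8% of all tested genes, with a median of -0.02. Atp6v0b (0.66 ± 0.11), Atp6ap2 (0.48 ± 0.11) and Atp6v1d (0.45 ± 0.10) rose, and Atp6v1g1 fell by 0.62 (standard error 0.09), so that the pump as a whole did not rise in every part. In the knockouts after saline 2 of these 12 were higher, against 5.44%. Atp6v0d2, the isoform of Atp6v0d1 found in osteoclasts and other cells of that lineage, was at 6.24, 6.39 and 5.93 on the wild-type saline arrays and at 9.04, 9.03 and 9.08 in knockout saline arrays, 7.27-fold higher (2.86 ± 0.18, adjusted p = 4.59e-05). Tcirg1, the a3 subunit of osteoclasts and macrophages, was higher by 0.74 ± 0.09. Atp6v0d1 itself, from another gene than Atp6v0d2, had a difference of 0.19 ± 0.08 (adjusted p = 0.154).

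For 6 of the 45 genes a second row was available. The rows agreed in sign in all 5 comparisons for Ctsc, where the second gave a knockout difference of 0.92 after saline and 1.90 after CL316243. The rows of Gla, an α-galactosidase, differed: with the agonist in wild types the row used here gave 0.20 and the other 1.21, and for the interaction they gave -0.34 and -1.36. The row used here ran from 7.91 to 8.96 within wild-type saline. For Manba, a β-mannosidase, the rows had opposite signs for the knockout after saline (-0.48 and 0.24). Cd63, a tetraspanin, was higher in the knockouts on both rows. The rows of Atp6v1b2 gave similar rises in wild types (0.52 and 0.50). In knockouts with the agonist they gave 0.29 and 0.07, and opposite signs for the knockout after CL316243 (0.02 and -0.04). For Ppt1 the rows gave -0.18 and -0.74 in wild types and opposite signs for the interaction (-0.06 and 0.30). Its second row had a low mean signal of 5.35.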

How the data were processed

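The deposited table of the series gives log2 signals of Affymetrix transcript clusters. Per the submitters' processing notes they come from RMA, Partek was used and the build is mm9, with no versions given. The authors' values were used without further normalization. Of 115830 rows, 25539 belong to 1 gene in the probe table used here, 2300 to several genes and 87991 are not listed. The number of columns without a sample is 0. For each of the 15896 tested genes, limma 3.58.1 (R 4.3.3) estimated the 4 group means, and empirical Bayes moderated the spread (prior degrees of freedom 3.14, residual 8). Benjamini-Hochberg adjustment was over all tested genes within each of 5 comparisons, and a gene is said to be called, to rise or to fall under 0.05. The code was tested on simulated data. Tables and figures were made with Python 3.11.15, pandas 2.3.3 and matplotlib 3.10.9.

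The members, the lists and the tests were chosen with earlier results of these data known, so they are no independent support for a direction. Any of the 45 genes could be named; of each further list, up to 4 genes per comparison with the largest difference among those called without overlap between the groups. The alternatives were median-centring, quantile normalization, no filter, a filter at the 50th percentile, averaging all rows of a gene, trended and robust moderation, only the groups compared, replicate number as a block, a threshold of 0.01 and leaving out each array. The 3 arrays per group limit the precision. Rows shared by several genes were not used.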

Additional observations from a re-analysis of the deposited data

Results flagged for a closer look

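For 2 of the 45 lysosomal genes the effect of CL316243 differed between knockout and wild-type mice by the interaction term of limma at an adjusted p under 0.05. The term was called for 2.04% of all tested genes. Lipa, lysosomal acid lipase, had an interaction of -0.87 ± 0.14 (log2, standard error, adjusted p = 0.01125), with a rise in wild types and a fall in knockouts. Ctsz, a carboxypeptidase, had one of -0.59 ± 0.13 (adjusted p = 0.0416), with a rise in wild types.

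Among the further lists, the same term was called for 5 named genes, against 2.04% of all tested genes. They were 1 of 12 pump subunits, 1 of 23 nutrient sensing genes and 3 of 22 autophagy genes. It was called for 0 of 18 hydrolases and cofactors and 0 of 20 membrane and trafficking proteins. The pump subunit Atp6v0a1 had an interaction of 0.78 ± 0.14 (adjusted p = 0.02), with the agonist raising it in knockouts, and this call held in 15 of 20 alternatives. Flcn, folliculin, a regulator of nutrient signalling at the lysosome, had one of -0.91 ± 0.17 (adjusted p = 0.021), held in 14 of 20. The autophagy genes Ulk1, which encodes the initiating kinase, and Wipi2, which binds the forming membrane, had interactions of -1.11 ± 0.17 and -0.84 ± 0.13, each held in 19 of 20. Atg14, part of the lipid kinase complex of autophagy, had one of -0.57 ± 0.12, held in 7 of 20.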

How the results depend on the processing

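No call reversed its direction under any alternative, for the 45 genes or the named genes of the further lists. The count of lysosomal genes called with CL316243 in wild types (20) was 11 at an adjusted p under 0.01 and 14 to 22 with each array left out. Of all tested genes 16.5% and 22.3% to 29.8% were called there, against 29.8% as reported. The median difference over the 45 was 0.0944 with arrays median-centred. In knockouts the count (5) was 2 with arrays median-centred, 7 with arrays quantile-normalized and 3 with no filter. It was 1 at the stricter threshold and 2 to 6 with each array left out. Of all tested genes 13.5%, 17%, 12.6%, 7.04% and 10.1% to 21.3% were called there, against 17.9%. For knockout against wild type after saline (18) the count was 11 with only the groups compared, 7 at the stricter threshold and 10 to 22 with each array left out. Of all tested genes 3.8%, 2.63% and 3.68% to 15.6% were called there, against 11.6%. After CL316243 (24) the count was 13 at the stricter threshold and 17 to 24 with each array left out. Of all tested genes 14.2% and 20.4% to 29.8% were called there, against 29.5%. For the interaction (2) the count was 1 with arrays median-centred, 1 with no filter and 1 to 3 with each array left out. It was 0 at the stricter threshold in limma, where 1 of the 45 was higher and 3 were lower at an unadjusted p under 0.05. Of all tested genes 1.54%, 1.26%, 0.808% to 2.54% and 0.327% were called there, against 2.04%. The median interaction over the 45 was -0.000787 without knockout saline array 1. A stricter threshold can only lower a count, and the cause of the other changes was not tested. With replicate number as a block, 22, 4, 18, 26 and 1 genes were called in the 5 comparisons, the last against 2. Of all tested genes 29.3%, 17.6%, 11.1%, 29.7% and 1.84% were called with that block. The labels do not pair mice by number, and the residuals do not settle whether the numbers do. Of 18 pairs of arrays with the same number, 7 had residuals correlated above 0.1, over a range of -0.298 to 0.476. Their median was -0.0154, against -0.045 for pairs with other numbers, and 7 of 12 arrays correlated best with their own number. Genes near the threshold, such as Scarb2 and Smpd1, are the ones most open to these choices, and 3 arrays per group leave differences of about their size unsettled.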

Other observations

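Genes of autophagy, the route that brings cell contents to lysosomes, were also counted. Of 22 tested, 8 rose and 3 fell with the agonist in wild types, against 11% and 18.8% of all tested genes, and 1 rose and 4 fell in knockouts, against 7.75% and 10.2%. In knockouts 0 were higher and 1 lower after saline, against 5.44% and 6.19%, and 1 was higher and 8 lower after CL316243, against 14.7% and 14.8%. Ulk1 was at 8.52, 8.41 and 8.40 on wild-type saline arrays and at 9.40, 8.95 and 8.92 in wild-type CL316243 arrays, and at 8.37, 8.44 and 8.31 and then 7.99, 7.78 and 7.95 in knockouts. It rose by 0.64 ± 0.12 in wild types (adjusted p = 0.00263) and fell by 0.47 in knockouts (standard error 0.12, adjusted p = 0.0228), the latter a call that held in 15 of 21 alternatives. Wipi2 went from 8.21, 8.33 and 8.13 to 8.86, 8.88 and 8.87 in wild types, without overlap, a rise of 0.64 ± 0.09, and its knockout arrays ran from 7.92 to 8.22 after saline and 7.77 to 7.89 after CL316243. Sqstm1, the cargo receptor p62, rose in both genotypes, by 0.86 ± 0.10 and 0.35 ± 0.10, the latter a call that held in 13 of 21 alternatives and with 5 of the 12 arrays left out in turn (adjusted p of up to 0.13). Atg12, part of the conjugation system, rose by 1.23 ± 0.19 in wild types.

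Of 23 genes of nutrient sensing and TFEB control at the lysosome, 6 rose and 4 fell with the agonist in wild types, and 1 rose and 3 fell in knockouts, against the same shares of all tested genes; the falls in wild types and both counts in knockouts are near those shares. Flcn was at 7.93, 8.19 and 7.71 on wild-type saline arrays and at 8.70, 8.86 and 8.97 in wild-type CL316243 arrays, a rise of 0.90 ± 0.12, while all 6 knockout arrays lay between 7.76 and 7.95. Its partner Fnip2 rose by 1.14 ± 0.16 in wild types and was already higher in knockouts after saline, by 0.97 ± 0.16. Rragc, a GTPase that recruits the kinase mTOR, rose by 0.60 ± 0.11 in wild types.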
